A study of Mus musculus with 2 samples.

Results

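Among medulloblastoma cells sequenced from mice at postnatal days 24 to 30, 288 of the 4991 cells carried the tag G15 in their column names, and these cells are described here. They were chosen by that tag alone, out of 16 tags, G1 to G16, whose meaning no label explains. The series holds 10991 cell barcodes in 2 Drop-seq libraries, 1 from postnatal days 24 to 30 and 1 from postnatal day 12, and both came from tumours of hGFAPcre;Ptchc/c mice. In these animals Cre recombinase under the human GFAP promoter, which is active in neural progenitors, acts on a conditional allele of Ptch1, the receptor that holds Sonic hedgehog (SHH) signalling in check. No control genotype enters the comparisons, how many animals were pooled per library is not stated, and the day 12 library (6000 barcodes) carries no such tags and enters no comparison. All values below therefore come from 1 library, cells are not replicates, no test was made, and every interval covers counting error only. The sources used here do not say whether the tags were assigned from expression. If they were, the differences between tags describe that assignment.

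Cerebellar granule neurons arise after birth from progenitors of the external granule layer, which express the transcription factor Atoh1 and divide under SHH. On leaving the cell cycle they turn on Neurod1, the adhesion molecule Cntn2 (TAG-1) and neuronal tubulin, and then migrate inwards. Loss of Ptch1 keeps the SHH pathway on, and the medulloblastomas that follow are made largely of cells along this path, from cycling progenitors to postmitotic neurons.

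Of the 288 G15 cells, 283 had at least 500 molecules counted by molecular barcode (UMIs) and at most 20% mitochondrial UMIs, and the 5 others all had fewer than 500 UMIs. The kept cells held 574324 UMIs, with a median of 1926 per cell (range 535 to 5215) and a median of 1096 genes. Mitochondrial UMIs made up 3.47% and ribosomal protein UMIs 16.8% of the total. The 4506 kept cells of the 15 other tags had a median of 2232 UMIs. Levels are given as CPM, UMIs of a gene per 1000000 UMIs summed over the cells of a tag, and a ratio is the CPM of G15 over that of all other tags together unless stated.

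G15 cells carried few transcripts of the mitotic machinery and few of the H2A histone genes. Summed over its cells, G15 had nearly the highest level of the granule progenitor list and a middle level of the differentiating granule neuron list. Replication genes stood in between. In the plot of gene lists by tag, this combination can be read off for G15 and its neighbours.

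**Figure D1:**
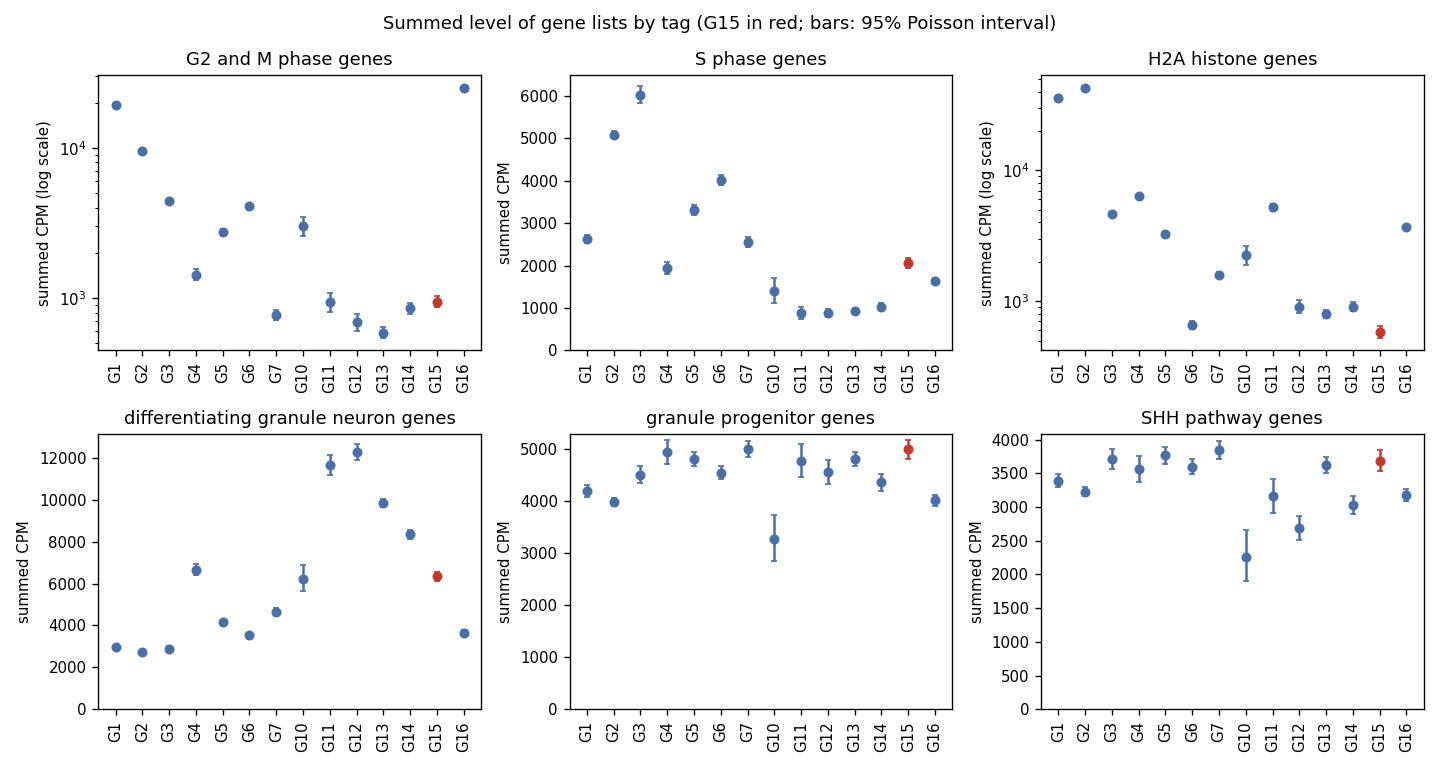
Summed level of 6 gene lists in each of the 14 tags with at least 50 kept cells (x axis), in CPM on the y axis (log scale for the G2 and M phase and the H2A panels), with G15 in red and bars for exact 95% Poisson intervals. G15 has the lowest H2A level (585 CPM), a G2 and M phase level of 945 CPM, and a differentiating granule neuron level (6347 CPM) between G7 (4665 CPM) and G14 (8345 CPM).

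The G2 and M phase list holds 35 genes, most of them for chromosome condensation, the spindle and the exit from mitosis. All 35 reached the minimum of 50 UMIs over all kept cells. All 35 were at least 2-fold lower in G15 than in the other tags together, with a median log2 ratio of -3.70. Over all 11080 genes with 50 UMIs the share at least 2-fold lower was 8.89% and the median log2 ratio was 0.02. The other tags together include those with the highest mitotic levels. Set against the median of the other tags, each counted once, 20 of the list's genes were at least 2-fold lower. Summed over the list, G15 had 945 CPM (868 to 1028), the ninth highest of the 14 tags with at least 50 kept cells. The highest levels were 25024 CPM in G16 and 19331 CPM in G1. The lowest was 591 CPM in G13. G7 (774 CPM, 714 to 838) and G12 (689 CPM, 602 to 785) lay below G15 with intervals apart from its own, while G14 (857 CPM, 786 to 932) and G11 (937 CPM, 805 to 1085) had intervals that overlap that of G15.

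Several single genes of the list were close to the limit of detection in G15, but Hmgb2, with 237 UMIs in 128 cells (ratio 0.163), was not. Hmmr, a hyaluronan receptor that also binds the mitotic spindle (chromosome 11, 40701395 to 40733422), had 0 UMIs in G15 against 2168 in the other tags (188 CPM), at least 36.0-fold lower against a floor of 3 counts over the tag. Cdk1, the kinase that drives entry into mitosis, had 3 UMIs in 3 G15 cells (5.22 CPM against 158), a ratio of 0.0331 (0.00682 to 0.0969). Tags G4, G11, G12, G13 and G14 were as low, at 3.06 to 6.05 CPM of Cdk1. Gtse1, a regulator of microtubules in G2, was also at 0, against 183 UMIs elsewhere, at least 3.04-fold lower against the same floor. The gene with the smallest difference was Ckap5, a microtubule polymerase used outside mitosis too, with 40 UMIs (69.6 CPM against 151) and a ratio of 0.46 (0.328 to 0.629). Other members, chosen after their values were seen, were Mki67, a proliferation marker, with 32 UMIs in 18 cells (ratio 0.111), Top2a, the topoisomerase of condensing chromosomes, with 28 UMIs in 22 cells (0.0669), and Ube2c, which feeds the anaphase-promoting complex, with 13 UMIs in 10 cells (0.0606).

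Many genes of this list share a short promoter element, the cell cycle homology region (CHR), through which the DREAM and MuvB complexes are known to hold them down in resting cells and raise them in G2. The 6 letters TTTGAA of that element were searched on both strands in RefSeq promoters (GRCm38.p6, from 250 bases before to 50 after each start). They occurred in 24 of the 33 promoters of the list, 72.7%, against 17.9% of all 32851 promoters and 11.7% of the 10395 promoters of genes with at least 50 UMIs. In the S phase list 14.3% of 28 promoters held them, and in the differentiating granule neuron list 17.6% of 17. The 30-base stretches around the match are shown for 6 genes that were low in G15, read 5′ to 3′ on the strand of the gene, with the CHR letters or their reverse complement in capitals. A match describes these letters only and is not a mapped binding site.
Hmmr, chr11:40733412-40733441, minus strand: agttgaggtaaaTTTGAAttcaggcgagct
Cdk1, chr10:69352910-69352939, minus strand: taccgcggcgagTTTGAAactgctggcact
Ccnb2, chr9:70421533-70421562, minus strand: agcggcgcggtaTTTGAAtcgcggaccggg
Cenpf, chr1:189688067-189688096, minus strand: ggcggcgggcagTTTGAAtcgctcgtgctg
Mki67, chr7:135716460-135716489, minus strand: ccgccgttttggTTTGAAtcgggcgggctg
Top2a, chr11:99024195-99024224, minus strand: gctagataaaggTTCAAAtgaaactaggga
In Cdk1 the first capital lies at position -15 from the annotated start and in Ccnb2 at position 5, on opposite sides of the start. Of the genes shown, Ccnb2, the cyclin B2 partner of Cdk1, had 5 UMIs in G15 and a ratio of 0.065, and Cenpf, a kinetochore protein, had 18 UMIs and a ratio of 0.065. Ckap5, the member least lowered, holds the letters as well.

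Replication-dependent H2A histone genes, whose transcripts accumulate in S phase, made up 11 of the 12 lowest genes by the interval bound nearest to 1, after Hmmr. The group was formed after these values were seen. Of its 18 genes with at least 50 UMIs, 16 were at least 2-fold lower in G15, with a median log2 ratio of -4.97. Hist1h2ap had 46 UMIs in 40 cells (80.1 CPM against 2814), a ratio of 0.0285 (0.0208 to 0.038). Hist1h2ah had 13 UMIs in 13 cells (22.6 CPM against 958), a ratio of 0.0236 (0.0126 to 0.0404). The genes outside the 16 were Hist3h2a, with 53 UMIs and 92.3 CPM against 72, and Hist1h2aa, at 0 in G15 and with 67 UMIs elsewhere. The H2A genes are near-identical copies, reads may be split or shared among them, and single values are uncertain. Their sum does not depend on that split: it was 585 CPM (524 to 651) in G15, the lowest of the 14 tags, against 42922 CPM in G2 and 35591 CPM in G1. The next lowest was G6 with 656 CPM (609 to 706), whose interval overlaps that of G15, then G13 with 802 CPM (747 to 860).

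Genes of DNA replication were lower in G15 than in the pooled other tags but far from absent. Of 33 S phase genes counted, 11 were at least 2-fold lower and 0 at least 2-fold higher, with a median log2 ratio of -0.59. Against the median of the other tags, each counted once, 3 were at least 2-fold lower and 2 at least 2-fold higher. The list summed to 2069 CPM (1953 to 2190), the seventh highest of 14. G7 lay above at 2548 CPM and G4 (1934 CPM, 1794 to 2081) below with an overlapping interval, while G14 had 1026 CPM and G13 918 CPM. G6, the next lowest after G15 for H2A genes, had 4022 CPM of this list, the rank of 3 among the 14. Low H2A levels thus did not go with a low S phase sum in that tag. E2f8, a repressor of the E2F programme that peaks late in S phase, was lowest, with 1 UMI (1.74 CPM against 18.5) and a ratio of 0.0942 (0.00237 to 0.53). Exo1, an exonuclease of DNA repair, followed with 3 UMIs (ratio 0.275, 0.0562 to 0.814). Gins2, a subunit of the replicative helicase, was at the other end with 78 UMIs in 64 cells (136 CPM against 107) and a ratio of 1.28 (1.00 to 1.6), and Cdt1, which loads that helicase, had 43 UMIs (74.9 CPM against 62.7; 1.19, 0.857 to 1.63).

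The replicative helicase genes show how G15 sits between its neighbours; the genes in this paragraph were chosen after their values were seen. Mcm6, a helicase subunit, stood at 220 CPM in G6, 180 in G7, 157 in G5, 113 (87.3 to 144) in G15, 86.4 in G4, 47.4 in G14 and 41.3 in G13. Pcna, the sliding clamp of the polymerases, followed nearly the same order, with 564 CPM in G6, 471 in G5, 344 in G7, 262 in G4, 256 (216 to 301) in G15, 126 in G14 and 118 in G13. Its pseudogene Pcna-ps2 carried 156 UMIs in G15 beside 147 of Pcna, so reads may be divided between the 2 and the single values are uncertain. G15 lay apart from G13 and G14 in both genes, and its intervals overlapped those of G4. Hmgb2, a chromatin protein raised from S phase to mitosis, is a member of the G2 and M phase list. It was higher in G15 than in G7, at 413 CPM (362 to 469) against 216 (184 to 251), while G6 had 2084 CPM, G14 308 and G13 130.0.

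**Figure D2:**
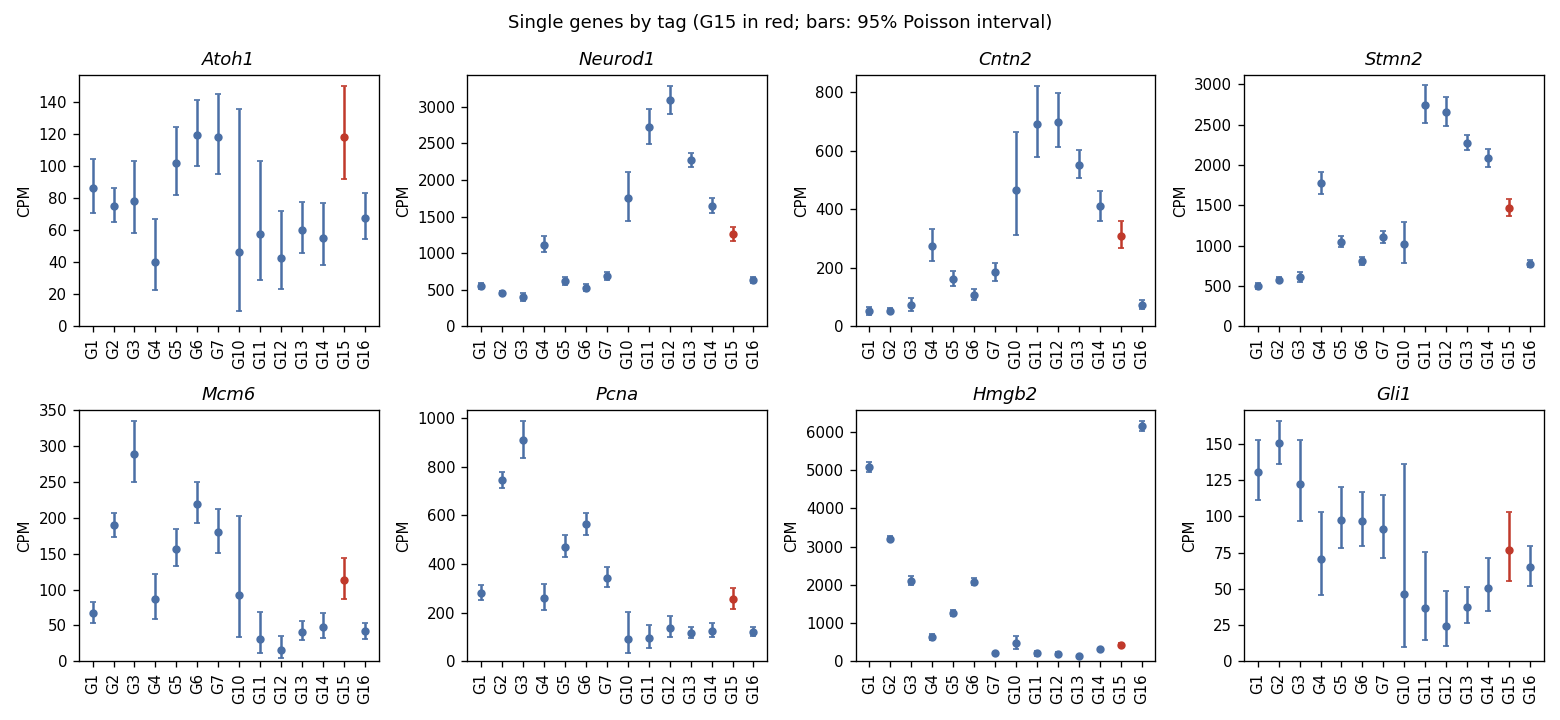
Level of 8 single genes in each of the 14 tags with at least 50 kept cells (x axis), in CPM on the y axis, with G15 in red and bars for exact 95% Poisson intervals. G15 is near the top for Atoh1 (118 CPM) and ranks sixth of 14 for Neurod1 (1262 CPM), Cntn2 (309.9 CPM) and Stmn2 (1473 CPM).

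The summed level of granule progenitor genes was about as high in G15 as in any tag. Of its 2870 UMIs, Sfrp1 gave 865, Ccnd2 736 and Zic1 485. Single members varied in rank among the 14 tags: Mfap4, Gli2 and Mycn ranked 1, Atoh1 and Sfrp1 2, Ccnd2 3 and Hhip 5. Gli1, Barhl1 and Zic1 ranked 7, Boc 10 and Ccnd1 11. The list summed to 4997 CPM (4816 to 5183), second of 14, beside 5001 CPM (4845 to 5160) in G7 and 4947 CPM (4723 to 5179) in G4. These 3 intervals overlap widely, and those of G5 (4812 CPM), G13 (4811 CPM) and G11 (4779 CPM) overlap that of G15 too. The list was lower in the strongly mitotic tags G16 (4017 CPM) and G1 (4199 CPM). With each cell cut to 500 UMIs, the highest G13 cell held 182 UMIs of the list and the highest G11 cell 33, against 9 in G15. The whole range over the 14 tags was narrow, down to 3268 CPM in G10. Of 13 members counted, 1 was at least 2-fold higher and 0 lower, with a median log2 ratio of 0.27. The share of all genes at least 2-fold higher was 3.03%. The higher gene was Mfap4, a microfibril-associated protein, with 36 UMIs in 30 cells (62.7 CPM against 29.9), a ratio of 2.09 (1.44 to 2.96) and the highest level of the 14 tags. Gli2, the main transcriptional activator of the SHH pathway, had 23 UMIs in 21 cells and a ratio of 1.82 (1.13 to 2.79). Ccnd1, a cyclin of G1, was at the low end with 364 CPM against 500 (ratio 0.728, 0.631 to 0.836), and Boc, an SHH co-receptor, had a ratio of 0.781 (0.466 to 1.23).

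Atoh1 itself (chromosome 6, 64729125 to 64731245), chosen after its values were seen, had 68 UMIs in 52 G15 cells. Its level was 118 CPM (91.9 to 150), beside 119 CPM in G6, 118 CPM in G7 and 102 CPM in G5. In G13 it was 60.5 CPM (46.1 to 77.8), in G14 55.3 CPM (38.5 to 77) and in G4 40.5 CPM (22.7 to 66.8). The G15 interval lies above those of G4, G13 and G14 and overlaps those of G5, G6 and G7. Mycn, a growth-promoting target of SHH, was highest of the 14 tags in G15 at 205 CPM (170.1 to 246), with G7 at 204 CPM (174 to 238), an order within counting error.

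The SHH pathway list, which partly repeats the progenitor list, gave 16 genes counted, 0 higher, 2 lower and a median log2 ratio of 0.06. G15 had the fourth highest level of 14 at 3688 CPM (3532 to 3848). Its interval overlaps those of G7 (3846 CPM), G5, G3, G13, G6 and G4 (3565 CPM), an order within counting error. With each cell cut to 500 UMIs, the highest G13 cell held 182 UMIs of the list, against 7 in G15. The lower genes were Igf2, a growth factor, with 6 UMIs (ratio 0.285, 0.104 to 0.624), and Bcl2, an inhibitor of cell death, with 1 UMI (0.239, 0.00598 to 1.37). Ptch1, the targeted gene, had 11 UMIs in 10 G15 cells, 19.2 CPM (9.56 to 34.3) against 11.9 CPM in the other tags and a ratio of 1.61 (0.785 to 2.97). Its reads come from the 3′ end of the transcript, so their presence does not check the deletion. Gli1, a direct target of the pathway, had 76.6 CPM (55.7 to 103) in G15, 91.2 CPM in G7, 50.6 CPM in G14 and 37.3 CPM in G13, and was seventh of 14.

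Beside these progenitor genes, G15 as a whole carried transcripts of differentiating granule neurons at a middle level, a sum over cells that varied widely. The list summed to 6347 CPM (6142 to 6556) in G15, sixth of 14. G12 was highest at 12275 CPM, followed by G11 at 11662, G13 at 9851 and G14 at 8345 CPM. G4 (6667 CPM, 6407 to 6936) and G10 (6242 CPM, 5648 to 6883) had intervals overlapping that of G15, and G7 followed at 4665 CPM (4515 to 4820). All 16 members were counted, 2 were at least 2-fold higher and 0 lower, and the median log2 ratio was 0.41 against 0.02 over all genes. The higher genes were both scarce: Neurod2, a proneural transcription factor, with 13 UMIs in 11 cells (22.6 CPM against 9.81; ratio 2.31, 1.19 to 4.11), and Astn1, an adhesion protein of migrating granule neurons, with 10 UMIs in 9 cells (17.4 CPM against 7.64; 2.28, 1.06 to 4.39). The lowest were Sox11 (ratio 0.783, 0.443 to 1.29) and Pax6 (0.838, 0.656 to 1.06), both transcription factors already present in progenitors.

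The abundant members of that list, chosen after their values were seen, moved by less than 2-fold against all other tags. Neurod1 (chromosome 2, 79452521 to 79456751), with 725 UMIs in 147 G15 cells, stood at 531 CPM in G6, 620.0 in G5, 687 in G7, 1115 in G4, 1262 (1172 to 1358) in G15, 1646 in G14 and 2270 (2177 to 2366) in G13. No interval of these neighbours overlaps that of G15 except that of G4 (1010 to 1228). Cntn2, with 178 UMIs in 99 cells, stood at 108 CPM in G6, 162 in G5, 185 in G7, 273 in G4, 309.9 (266 to 359) in G15, 409 in G14 and 552 in G13. Stmn2, a microtubule regulator of growing axons, had 846 UMIs in 185 cells and 1473 CPM (1375 to 1576) in G15, 1109 CPM in G7, 1777 CPM in G4 and 2085 CPM in G14. Rbfox3 (NeuN), a splicing factor of postmitotic neurons and the highest of 4 counted mature granule neuron genes, had 171 UMIs (298 CPM against 190) and a ratio of 1.57 (1.33 to 1.83). Snap25, a vesicle fusion protein, was next in that list at 1.34 (1.08 to 1.64), and Cbln1, a synaptic organiser, lowest with 5 UMIs (0.554, 0.178 to 1.32).

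Other neuronal lists showed small differences of the same size. Of 21 cytoskeletal genes of young neurons 0 passed 2-fold either way, with a median log2 ratio of 0.28. The highest were Dpysl3, a collapsin response mediator (ratio 1.7, 1.22 to 2.31), and Tubb3, neuronal tubulin (1.48, 1.35 to 1.63), and the lowest Stmn1 (0.775, 0.715 to 0.839), which is abundant in dividing cells. Of 17 axon guidance and adhesion genes 1 was higher (Astn1) and 2 lower, with a median log2 ratio of 0.43, and Robo2, a Slit receptor, had 64 UMIs and a ratio of 1.86 (1.42 to 2.41). The lower genes, Plxna2 and Efnb2, had 2 and 1 UMIs. Of 19 synaptic genes 0 were higher and 1 lower, and Rab3a, a vesicle GTPase, had the highest ratio at 1.8 (1.3 to 2.45).

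Pathway lists other than those of the cell cycle are set here against the 3.03% of all genes at least 2-fold higher and the 8.89% at least 2-fold lower. Among 9 Notch genes counted 0 were higher and 2 lower: Jag1, a ligand, with 1 UMI, and Notch1, a receptor, with 2. Hey1, a Notch effector, was highest with 85 UMIs (148 CPM against 84.2; ratio 1.76, 1.39 to 2.2). Of 13 genes of cell-cycle exit 5 were lower, with a median log2 ratio of -0.31. Cdkn1a (p21), an inhibitor of cyclin-dependent kinases, was lowest with 4 UMIs (6.96 CPM against 40, ratio 0.174, 0.0472 to 0.449). That list summed to 597 CPM in G15 and was highest in the strongly mitotic tags G16 (1043 CPM) and G1 (1036 CPM). Against G7, G5 and G6 pooled, the tags compared below, 1 of 9 genes was lower and the summed ratio was 1.02 (0.908 to 1.15). Among 18 chromatin regulators Kdm6b, an H3K27 demethylase, with 43 UMIs in 33 cells (74.9 CPM against 34.8; 2.15, 1.53 to 2.95), and Dnmt3b, a DNA methyltransferase, with 5 UMIs, were at least 2-fold higher. Kdm6b was at the third highest level of the 14 tags. None of 21 oxidative phosphorylation genes and none of 11 immediate early and dissociation genes passed 2-fold, with medians of -0.08 and 0.10. Of 16 glycolysis genes 2 were lower, Hk1 (1 UMI) and Aldoc (4 UMIs), and of 5 nuclear and long non-coding RNAs 1 was lower, Meg3 with 4 UMIs.

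Of 14 genes of p53 and apoptosis 3 were lower and 1 higher, Sesn2 with 6 UMIs. Of 7 interferon response genes 2 were lower, Ifit2 with 4 UMIs and Xaf1 with 3. Of 15 receptors and ion channels 2 were lower, Gria1 and Cacna1a, and 1 higher, Scn2a1, a neuronal sodium channel, with 9 UMIs (ratio 2.07, 0.918 to 4.12), which without the cell with the most of its UMIs on each side fell to a log2 ratio of -0.05. Of 12 extracellular matrix genes 3 were higher, Mfap4, Col4a1 (20 UMIs, of which 8 in 1 cell; 2.43, 1.45 to 3.88) and Lamb1 (6 UMIs, of which 4 in 1 cell), and Sparc was lower. That list's median log2 ratio was 0.27, while its summed level was lower in G15, with a ratio of 0.912 (0.789 to 1.05).

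Markers of microglia, endothelium, erythroid cells and choroid plexus were scarce in G15, as in several other tags, while lists of some other neural types were not. Counted from the highest of the 14 tags, G15 had rank 10 for microglial, 11 for endothelial and erythroid, and 8 for choroid plexus markers. The 17 microglia and macrophage markers gave 22 UMIs in all G15 cells, 38.3 CPM, against 33931.5 CPM in the 35 cells of tag G8, the highest of all tags. Over the 14 tags with at least 50 kept cells the list ranged from 18 CPM in G7 to 527 CPM in G10. Csf1r, Aif1 and Ly86 were at 0 in G15, C1qa and Tyrobp at 1 UMI each, and 10 of 13 members counted were at least 2-fold lower. Endothelial markers gave 32 UMIs (55.7 CPM, range over tags 45.9 to 933 CPM) with Cldn5 and Flt1 at 0. Erythroid markers gave 36 UMIs (62.7 CPM, range 49.3 to 2164 CPM). Of the counted members 5 of 7 endothelial and 4 of 6 erythroid genes were lower. Choroid plexus markers gave 164 UMIs (286 CPM, range 175 to 17959 CPM), and 4 of 7 members counted were lower. Over all genes 8.89% were lower. Single tags held many of these UMIs outside G15: G8 2889 of 3986 microglial and G13 17818 of 22983 choroid plexus UMIs. Likewise G6 held 2411 of 3191 erythroid and G14 590 of 1529 endothelial UMIs. Such markers pass the minimum through those tags, and their counts as lower say little about G15 itself. Of 14 astrocyte and Bergmann glia genes 4 were lower, with Gfap, Aqp4 and Hopx at 1 UMI each and Mlc1 at 0. Others were well represented: Slc1a2, a glutamate transporter, had 113 UMIs (197 CPM against 182) and Ndrg2 49 UMIs (85.3 CPM against 54; ratio 1.58, 1.16 to 2.12). The sum of the list was 540 CPM, a ratio of 0.907 (0.807 to 1.02). Mature oligodendrocyte genes gave 3 lower of 7. Unipolar brush cell genes gave 0 past 2-fold of 3 and summed to 975 UMIs (ratio 1.26, 1.18 to 1.35), of which Nnat had 783. GABAergic neuron genes gave 1 lower of 3 (Pcp2, 5 UMIs) and summed to 315 UMIs (1.23, 1.09 to 1.37), of which Lhx1 had 307. Of the rest, meningeal fibroblast genes gave 2 lower of 6 (Igf2 and Apod), ependymal genes 0 of 1, and lymphocyte genes 1 lower of 1 (Cd52, 1 UMI). No neutrophil marker reached 50 UMIs.

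Oligodendrocyte progenitor genes summed to 372 UMIs (ratio 1.31, 1.18 to 1.45), and of 9 counted 1 was higher, Gpr17, with 7 of its 9 UMIs in 1 cell, and without the highest cell of each side its log2 ratio was -0.46. C1ql1, a secreted synaptic protein that is also in that list, was spread over 131 cells (208 UMIs; ratio 1.68, 1.45 to 1.94). The granule lineage markers given above were thus present in G15 while the defining markers of microglia and endothelium were at or near 0. How much single cells of other types or free RNA gave to these low levels was not tested. No doublet caller was run, and doublets may remain.

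Pericyte and smooth muscle markers were high in G15 through 1 cell. The list reached 294 CPM in G15, the highest of the 14 tags, against 34.5 CPM in the other tags (ratio 8.52, 7.07 to 10.2). Of its 169 UMIs in G15, 153 lay in 1 cell of 3881 UMIs. That cell held 117 of the 118 UMIs of Rgs5, a regulator of G protein signalling that marks pericytes, and 10 of the 15 UMIs of Gucy1a3, a subunit of the nitric oxide receptor. Without the highest cell on each side the log2 ratio of Rgs5 fell from 5.04 to -0.76.

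The genes with the highest ratios in G15 were mostly of this kind, as the plot of where their UMIs lie shows. Slco4c1, an organic anion transporter (chromosome 1, 96816270 to 96872171), had 75 UMIs, all in 1 cell, against 21 in the other tags, a ratio of 71.6 (43.7 to 122). Vwce had 105 UMIs in 1 cell (ratio 23.4, 17.5 to 31.4), Vmn1r208, a vomeronasal receptor gene, 95 in 1 cell (32.9, 23.5 to 46.4) and Grm8, a metabotropic glutamate receptor, 26 in 1 cell (14.5, 8.4 to 24.7). Papln had 34 of 50 UMIs and Glis3 17 of 18 UMIs in 1 cell. The counting intervals of these genes treat UMIs of 1 cell as independent and do not cover the spread between cells. A different cell carried each of Slco4c1, Vwce, Vmn1r208 and Grm8, and these cells held granule progenitor UMIs too, between 4 and 16 each.

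Genes among the 12 highest that were spread over cells were scarce. Rph3a, a Rab3 effector at synaptic vesicles, had 15 UMIs in 14 cells (26.1 CPM against 6.42; ratio 4.07, 2.17 to 7.15). Pot1b, a telomere-binding protein, had 15 UMIs in 12 cells (4.49, 2.38 to 7.94), Slc16a13, a monocarboxylate transporter, 13 UMIs in 11 cells (3.73, 1.89 to 6.79) and Lactb, a mitochondrial protein, 21 UMIs in 14 cells (3.01, 1.81 to 4.78). Of the 336 genes at least 2-fold higher in G15, 190 had at most 10 UMIs there, 30 had at least 50% of them in 1 cell, and 23 were seen in at least 20 G15 cells. Without the highest cell of each side 127 of the 336 were still at least 2-fold higher, and of the 985 genes at least 2-fold lower, 677 were. In all, 1350 genes were at least 2-fold lower at this setting. It takes 1 cell from the 283 of G15 and 1 from the 4506 others, so ratios of scarce genes tend to fall. A gene left at 0 is set to the floor of 3 counts, which can exceed its own count before. These counts are thus partly fixed by the setting.

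**Figure D3:**
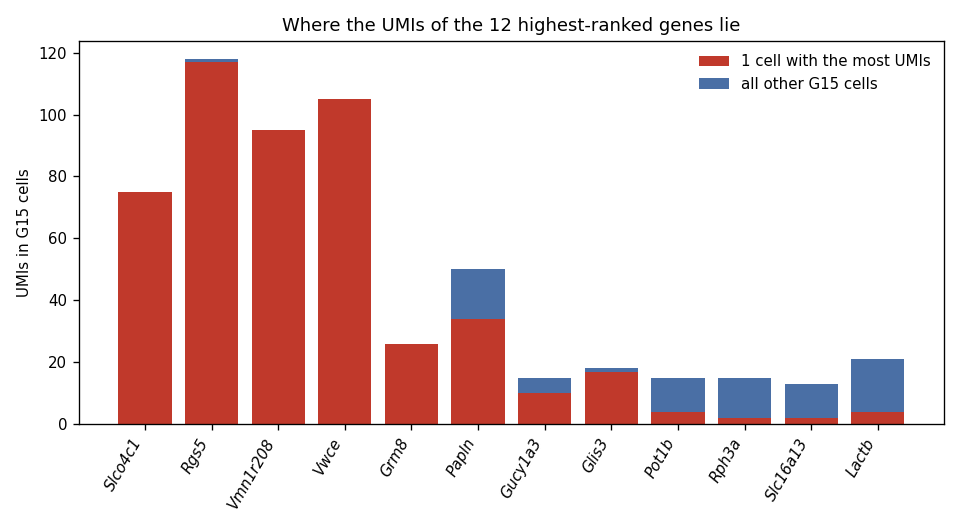
UMIs in the kept G15 cells (y axis) of the 12 genes with the highest ratio over the other tags (x axis), with the UMIs of the single cell that has most of them in red and those of all other G15 cells in blue. Slco4c1, Vmn1r208, Vwce and Grm8 lie in 1 cell each, while Pot1b, Rph3a, Slc16a13 and Lactb are spread over 11 to 14 cells.

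The tags most like G15 were G7, G5 and G6, with Pearson correlations of log2(CPM + 20) of 0.972, 0.965 and 0.961 over 11080 genes, followed by G4 (0.956), G14 (0.953) and G13 (0.95). These correlations are across genes of 1 library, which share base composition and counting, and describe likeness only. Nearest neighbours of single cells, given below, put G13, G14 and G12 nearer to G15 than G5. Against G7, G5 and G6 pooled, 91 of 7348 genes were at least 2-fold higher in G15 (1.24%) and 251 at least 2-fold lower (3.42%), with a median log2 ratio of 0.02. In the G2 and M phase list 19 of 23 genes counted were at least 2-fold lower, with a median log2 ratio of -1.64, and in the S phase list 8 of 32, with a median of -0.76. In the H2A group 12 of 14 were lower, with a median of -1.90. The differentiating granule neuron list gave 2 of 14 higher, with a median of 0.54, and a summed level 1.57 times that of the 3 tags (1.51 to 1.63). Granule progenitor genes gave 0 of 12 past 2-fold in either direction and a summed ratio of 1.05 (1.01 to 1.09). The 3 tags were not alike in this: the G2 and M phase list summed to 2763 CPM in G5 and 4120 CPM in G6, above the 945 CPM of G15, but to 774 CPM in G7, below it. Hmgb2 gave 237 of the 543 UMIs of that list in G15. The differentiating granule neuron list was lower than in G15 in each of the 3, at 4665 CPM in G7, 4143 CPM in G5 and 3527 CPM in G6.

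The genes past 2-fold in the neuron list here were those already abundant. Neurod1 had 1262 CPM in G15 against 603 in the 3 tags, a ratio of 2.09 (1.92 to 2.28), and Cntn2 309.9 CPM against 147, a ratio of 2.11 (1.76 to 2.53). Neurod2 was too scarce to be counted there. Among other genes, chosen after their values were seen, Rab3a had 78.4 CPM against 31.3 (2.51, 1.71 to 3.63), and Rora, a nuclear receptor, 38.3 CPM against 10.3 in 14 cells (3.72, 2.04 to 6.7). H2afz, a histone variant that is not confined to S phase, had 582 CPM in G15 against 1585 in the 3 tags (0.367, 0.327 to 0.41), and Hmgn2, a nucleosome-binding protein, 747 against 1925 (0.388, 0.351 to 0.428). Both lay nearer to G14 (339.9 and 721 CPM) and G13 (654 and 742 CPM). The 5 genes with the lowest rank against the 3 tags were Hbb-bs, Hbb-bt, Hba-a1 and Hba-a2, globin genes, and Ms4a6b, with 1 to 6 UMIs each in G15. The erythroid list was at 2164 CPM in G6, against 133 CPM in G5 and 64.2 CPM in G7, but after thinning 1 G6 cell held 175 UMIs of it and 430 of 456 G6 cells held 0. The 5 with the highest rank against the 3 tags were Slco4c1, Rgs5, Vwce, Papln and Vmn1r208, the single-cell genes described above.

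Within G15, cells varied widely. Each kept cell was thinned to 500 UMIs to compare cells and tags at 1 depth, and no kept cell was shallower than that. The differentiating granule neuron list gave a median of 2 UMIs per thinned cell, an upper quartile of 5, a 90th percentile of 8 and a highest value of 17. At the low end 58 of the 283 cells had 0 UMIs of the list, and 14 had at least 10. In G7 5 of 334 cells had at least 10, with a 90th percentile of 5, in G14 34 of 308 and in G13 96 of 505. G15 thus had a longer upper tail than G7 and a shorter one than G13. For the H2A group 220 of 283 cells (77.7%) had 0 UMIs and the highest had 4. That share was 49.7% in G7, 71.9% in G13 and 76.5% in G6. Of the G2 and M phase list 175 cells (61.8%) had 0 UMIs, 11 had at least 3 and the highest had 10. More cells were at 0 in G7 (70.4%), G14 (66.6%) and G13 (75.8%), and fewer in G6 (22.6%). Hmgb2, 1 member of that list, was seen in 20.5% of thinned G15 cells, against 7.19% in G7, 13.3% in G14, 5.94% in G13 and 60.1% in G6. These shares at 0 without Hmgb2 were not tested. Granule progenitor genes were more evenly spread, with a median of 2 UMIs, 22 cells at 0 and a highest value of 9.

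**Figure D4:**
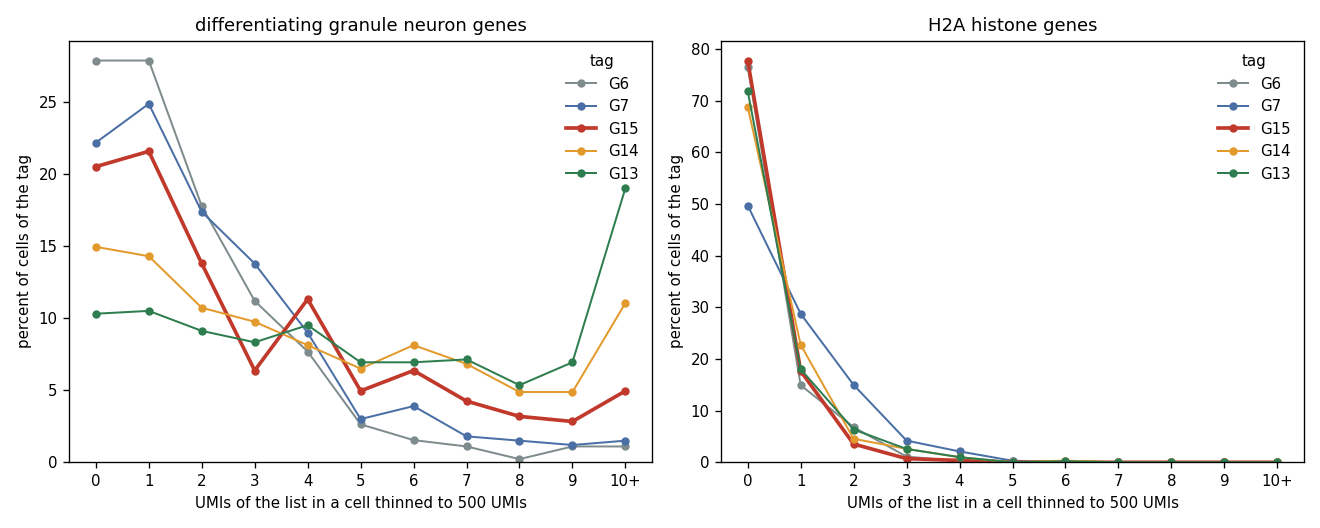
Percent of cells of a tag (y axis) by the number of UMIs of a gene list in a cell thinned to 500 UMIs (x axis, 10 or more in the last place), for G15 (red) and 4 other tags. On the left, 14 of 283 G15 cells reach 10 UMIs of the differentiating granule neuron list, and on the right 77.7% of G15 cells have 0 UMIs of the H2A group.

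Single genes gave the same picture at 500 UMIs per cell. Neurod1 was seen in 92 of 283 thinned G15 cells, 32.5% (27.1 to 38.3), against 22.8% (18.4 to 27.6) in G7, 39.3% (33.8 to 45) in G14 and 50.1% (45.6 to 54.5) in G13. Before thinning, 51.9% of G15 cells had a Neurod1 UMI. Stmn2 was seen in 43.8% (38 to 49.8) of thinned G15 cells, against 33.2% (28.2 to 38.6) in G7 and 52.6% (46.9 to 58.3) in G14, and in 65.4% of unthinned G15 cells. Pcna was seen in 11.3% (7.86 to 15.6), against 15.3% (11.6 to 19.6) in G7 and 5.52% (3.25 to 8.69) in G14, and in 32.5% unthinned. Tag G8, whose cells carry microglial markers, was taken as a rough measure of free RNA, with a median of 2002 UMIs against 1926 in G15. It gave 0 of 35 thinned cells with Neurod1 or Pcna, and 1 of 35 with Stmn2. A count of 0 of 35 allows up to 8.57% (3 cells of 35), and the exact interval reaches 10%. Before thinning 2.86%, 25.7% and 22.9% of G8 cells had a UMI of Neurod1, Pcna and Stmn2. Whether G8 cells made Pcna themselves was not tested. Top2a was seen in 4 and Mki67 in 2 of the 35 G8 cells before thinning. Atoh1 was seen in 12 thinned G15 cells, 4.24% (2.21 to 7.29), within the limit that 0 of 35 cells allows, which the Pcna interval of G15 also reaches, and in 18.4% unthinned, against 2.86% in G8. Of the 12 cells, 1 also had a Neurod1 UMI, a number too small to compare between tags.

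When all kept cells were clustered together on 2000 variable genes, G15 did not form a cluster of its own. Its 283 cells fell into 8 of 14 clusters, with 112 in cluster 0, 92 in cluster 2, 40 in cluster 3 and 23 in cluster 5. Cluster 0 held 1020 cells, with G6 giving more of them (254) than any other tag. Its top 10 genes included Hes1, Sox9 and Mcm6. Clusters 2 and 3 held more G13 cells than cells of any other tag (139 and 204). Tubb3, Cntn2 and Stmn2 were among the top 10 genes of cluster 2, and Cntn2, Neurod1 and Nhlh1 among those of cluster 3. The sums given for G15 are thus over cells of clusters with different leading genes. They do not show whether single cells carried progenitor and neuron genes together. In cluster 5, where G5 gave more cells than any other tag (100), replication genes such as Mcm2, Mcm4 and Hells were among the top 10. Only 1 G15 cell lay in cluster 4, which was led by mitotic genes, and 0 lay in cluster 1, which was led by H2A genes and held 792 of the 892 kept G2 cells. Of the remaining cells, 10 were in cluster 7, 3 in cluster 8 and 2 in cluster 10. Among the nearest neighbours of G15 cells in this space, 21.7% of links went to G13, 16.2% to G6 and 14.7% to other G15 cells. Another 14.3% went to G14 and 12.7% to G7. Of all kept cells, G13 held 10.5%, G6 9.52%, G14 6.43% and G7 6.97%. G12 took 8.48% of links with 4.3% of cells, and G5 7.04% with 7.87%. Against these shares, G13, G14 and G12 lay nearer to G15 than G5 did, unlike in the correlations. G15 cells make up 5.91% of all kept cells. The clusters are a description drawn from the same genes and test nothing.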

How the data were processed

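Droplet single-cell RNA (Drop-seq) from dissociated tumours was read at transcript 3′ ends, per the labels' protocols. The submitters' processing notes name the tool CASAVA and the build mm10, and the aligner, counter and annotation are not stated. The older library was deposited as natural log values, that is of 1 added to a share of the cell's UMIs scaled by 10000. UMIs were recovered by dividing each back-transformed value by the smallest of its cell, and 100% of values above 0 were whole within 0.001. The day 12 library was deposited as counts, and only its number of barcodes was used. Columns carry a tag and a number but no barcode, so barcodes shared between libraries could not be counted.

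Kept cells had 500 or more UMIs, of which 20% or less were mitochondrial, 4789 in all. UMIs were summed per tag and scaled to CPM. Ratios carry exact conditional 95% intervals (Clopper-Pearson), tag levels exact Poisson intervals and shares exact Clopper-Pearson intervals. For genes without a UMI the floor was 3 counts over the tag. Genes with at least 50 UMIs were counted, and past 2-fold means a ratio of at least 2 or at most 0.5. With 1 library there is no test and no doublet caller was run. Clustering used scanpy 1.11.5 (2000 variable genes, 30 components, 15 neighbours, Leiden resolution 1, seed 1). The interval calculation was run on simulated Poisson counts, which is what the intervals assume. That run cannot check them for UMIs clumped in single cells. Alternatives were the gene minimum, the cell filter, the scaling, equal weight of cells and the median of the other tags, and, chosen after seeing the data, leaving out the highest cell of each side or tags G8, G9 and G10.

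Genes were named by a rule: the 12 highest and 12 lowest ratios by the interval bound nearest to 1, without mitochondrial, ribosomal protein and number-named genes, the 2 highest and 2 lowest members of each of 34 lists, Ptch1, and the 5 highest and 5 lowest against the 3 most alike tags. Others are said to be chosen later. The tag, the lists and the rule were chosen with earlier results of these data known. Gene positions are from GENCODE vM21 on mm10 and promoter sequences from RefSeq on GRCm38.p6.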

Additional observations from a re-analysis of the deposited data

How the results depend on the processing

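No paired analysis was possible because each age has 1 library and no replicate numbers. The 336 genes at least 2-fold higher became 129 with at least 100 UMIs, 1904 with no minimum beyond 1 UMI and 127 without the highest cell of each side. The 985 lower genes became 625 against the median of the other tags. Over all lists the 11 higher members became 5 with at least 100 UMIs, 36 with no minimum, 7 with no filter on cells, 4 with each cell weighted equally, 18 against the median of the other tags and 3 without the highest cell of each side. The 99 lower members became 42 against the median of the other tags. The 2 higher differentiating granule neuron genes became 1 with at least 100 UMIs, with equal weight, against the median tag and without the highest cell. Against the median tag the 35 lower G2 and M phase genes became 20, and the 11 lower and 0 higher S phase genes became 3 and 2. The pooled side holds all cycling tags, and the median tag counts each tag once. With totals that leave out mitochondrial and ribosomal protein genes the summed levels became 1185 CPM (G2 and M phase), 2594 CPM (S phase), 7958 CPM (differentiating granule neuron) and 6266 CPM (granule progenitor), since the totals are smaller. With equal weight of cells the G2 and M phase level was 1083 CPM.

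Without the highest cell of each side, log2 ratios changed sign for Rgs5 (-0.76), Gpr17 (-0.46), Scn2a1 (-0.049) and Lamb1 (-0.10). Against the median tag they changed sign for Ms4a6b (0.20), Hbb-bt (0.55), Hba-a2 (0.15), Hopx (0.66), Apod (0.57), Notch1 (0.11), Sparc (0.21) and Meg3 (0.0017). The cause was not tested beyond what each alternative leaves out. Of 143 named genes, 142 kept direction and size with no filter on cells, 128 with each cell weighted equally, 121 without the highest cell of each side and 88 against the median tag, where 40 moved. Depth limits scarce genes: a gene with 1 UMI in G15 has an interval of well over 10-fold.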
